A study of Mus musculus with 6 samples.

Results

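Ribosome biogenesis factors are the proteins that turn a ribosomal RNA transcript into mature ribosomal subunits without staying in the finished ribosome. They were taken here as the genes that carry the KEGG pathway entry for eukaryotic ribosome biogenesis in the deposited annotation, leaving out symbols that begin with Xpo, Ran, Nup, Ddx, Dhx, Eif, Rpl or Rps. This rule used no measured value and gave 74 of the 22063 genes in the table. The entry held 77 genes, and the 3 left out by prefix were Xpo1, Ran and Eif6. For 57 of the 74 it was the only pathway listed.

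RNA of mouse macrophages was sequenced from 3 samples of CAR-Ms (genotype WT) and 3 samples of CAR-Trem2-Ms (genotype written TERM2+ in the labels). Both groups were grown for 7 days in DMEM with M-CSF at 20 ng/mL, the factor that drives macrophage differentiation, and both carry a chimeric antigen receptor (CAR) delivered by lentivirus. For CAR-Trem2-Ms the labels add 24 h of VD3 at 1 µM and a sort by flow cytometry. A protocol text shared by all samples also names VD3, so its use in CAR-Ms is unsettled. Trem2 status, sorting and possibly VD3 changed together, and they cannot be told apart. The labels do not say whether the 3 samples of a group came from separate cultures or animals, so the p-values refer to the scatter among these samples, which may be technical.

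Total counts ran from 14204468 to 15913100 for the CAR-Ms samples and from 9804959 to 12558021 for those of CAR-Trem2-Ms. Trem2 itself was at 74.1 to 78.7 CPM (CPM are counts scaled to library size, here with trimmed-mean factors, TMM) in CAR-Ms and at 182.5 to 196.0 CPM in CAR-Trem2-Ms. The 12 macrophage markers checked summed to 3455 to 3479 CPM and 3936 to 3961 CPM. Of the 9 with enough reads for the test described below, 7 were called higher and 2 lower, beside 40.9% and 40.1% of all genes. In contrast, 5 of 6 keratinocyte markers had no read although the labelled tissue is skin. Some values of other cell types and of library make-up moved with the groups. The 8 neutrophil markers summed to 18.3 to 35.2 CPM in the CAR-Ms samples and 2.82 to 6.06 CPM in those of CAR-Trem2-Ms, and the 5 B cell markers to 10.9 to 16.9 and 3.43 to 4.46 CPM. The 8 fibroblast markers summed to 2.35 to 2.97 and 4.77 to 5.63 CPM, and the 4 endothelial markers to 3.38 to 4.85 and 0.92 to 2.23 CPM. The 6 dendritic cell markers summed to 2.09 to 2.53 and 2.82 to 4.10 CPM. For the 8 T or NK cell markers the sums overlapped, at 20.1 to 23.6 and 18.2 to 27.1 CPM. The part of these cell types in the results below was not tested. Genes of the mitochondrial genome took 4.6% to 4.7% of counts for CAR-Ms, against 13.38% to 13.8% for CAR-Trem2-Ms. With those genes left out, the numbers of ribosome biogenesis factors called were as given below (15 higher, 45 lower).

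In eukaryotes RNA polymerase I transcribes a long precursor of ribosomal RNA in the nucleolus. Small nucleolar ribonucleoproteins (snoRNPs) guide its methylation, pseudouridylation and folding, and the small-subunit processome, built from the UTP-A, UTP-B and UTP-C complexes and the U3 snoRNP, assembles on it as it is made. Nucleases cut the spacers away, and GTPases, ATPases and export adaptors then mature the pre-ribosomes and carry them to the cytoplasm. In macrophages, as in other cells, this programme is known to follow growth and proliferation.

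Most of these genes were lower in CAR-Trem2-Ms, by modest amounts. Of the 74, 68 passed the filter on low counts. The 6 that did not were Rpp25, Fbll1, Rasl2-9, Nxf2, Nxf3 and 1 predicted gene, and the last 3 had no read in any sample. Each of those 68 had at least 66 reads in every sample, so none entered the test through 1 group alone. By edgeR's quasi-likelihood test with Benjamini-Hochberg adjustment over all 11402 genes tested, 45 were called lower at an adjusted p under 0.05. That is 66.2% of the 68, beside 40.1% of all genes tested. Another 15 were called higher, 22.1% beside 40.9% of all genes, and 8 were not called. The median log2 fold change (CAR-Trem2-Ms over CAR-Ms) was -0.31 among the 68 and 0.03 among all genes, with a range of -1.58 to 2.14. In bulk RNA, fewer cells of a kind and less RNA per cell cannot be told apart.

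The share of large falls was near that of the table as a whole. Of the 68 genes, 9 were called lower and at least 2-fold (13.2%, beside 14.3% of all genes), and 5 were called higher and at least 2-fold (7.35%, beside 18.7%). The samples of the 2 groups did not overlap for 59 of the 68 genes (86.8%, beside 81.8% of all genes), 43 of them lower in CAR-Trem2-Ms. Among the 45 called lower, 9 had a log2 change smaller in size than 0.2. The 74 genes together took 0.824% to 0.836% of counts for CAR-Ms, against 0.628% to 0.637% for CAR-Trem2-Ms, and 0.864% to 0.877% against 0.728% to 0.736% once mitochondrial genes were set aside.

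The count of calls moved with scaling. Upper quartile factors shifted the median of all genes from 0.03 to 0.26 and gave 21 higher and 31 lower, with a median of -0.08 for the tested factors. Of all 11402 genes, 5714 were then called higher and 3606 lower. Total-count scaling shifted the all-gene median to -0.10 and gave 13 higher and 49 lower, beside 4154 and 5096 of all genes. On log2(TPM + 1), TPM being transcript counts scaled for length within a library, the median of all genes was -0.63, with 5 higher and 58 lower among 69 genes. Among all 10824 genes tested there, 1890 were called higher and 6946 lower. With TMM factors applied to TPM, the median of all genes was -0.00, with 16 higher and 40 lower, beside 4134 and 4194 of all genes. A value given below as on TPM is without TMM factors. The first 2 of these settings move every gene alike, so the distance of the factors from the all-gene median (-0.34) does not change with them. Removing per-sample trends with GC content and transcript length, called the GC and length correction here and added after seeing the data, moves genes differently. It gave a distance of -0.30, and 47 of 68 genes below the all-gene median, where 51 lay before. It gave 16 higher and 39 lower, beside 4433 and 4532 of all 11402 genes. It ended or turned the call for 10 of the 45 genes called lower and for 2 of the 15 called higher, and it moved the fold change by over 1.5 times for 7 genes called lower, 3 called higher and 2 not called. Where it did so for a gene described below, the corrected value follows.

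**Figure D1:**
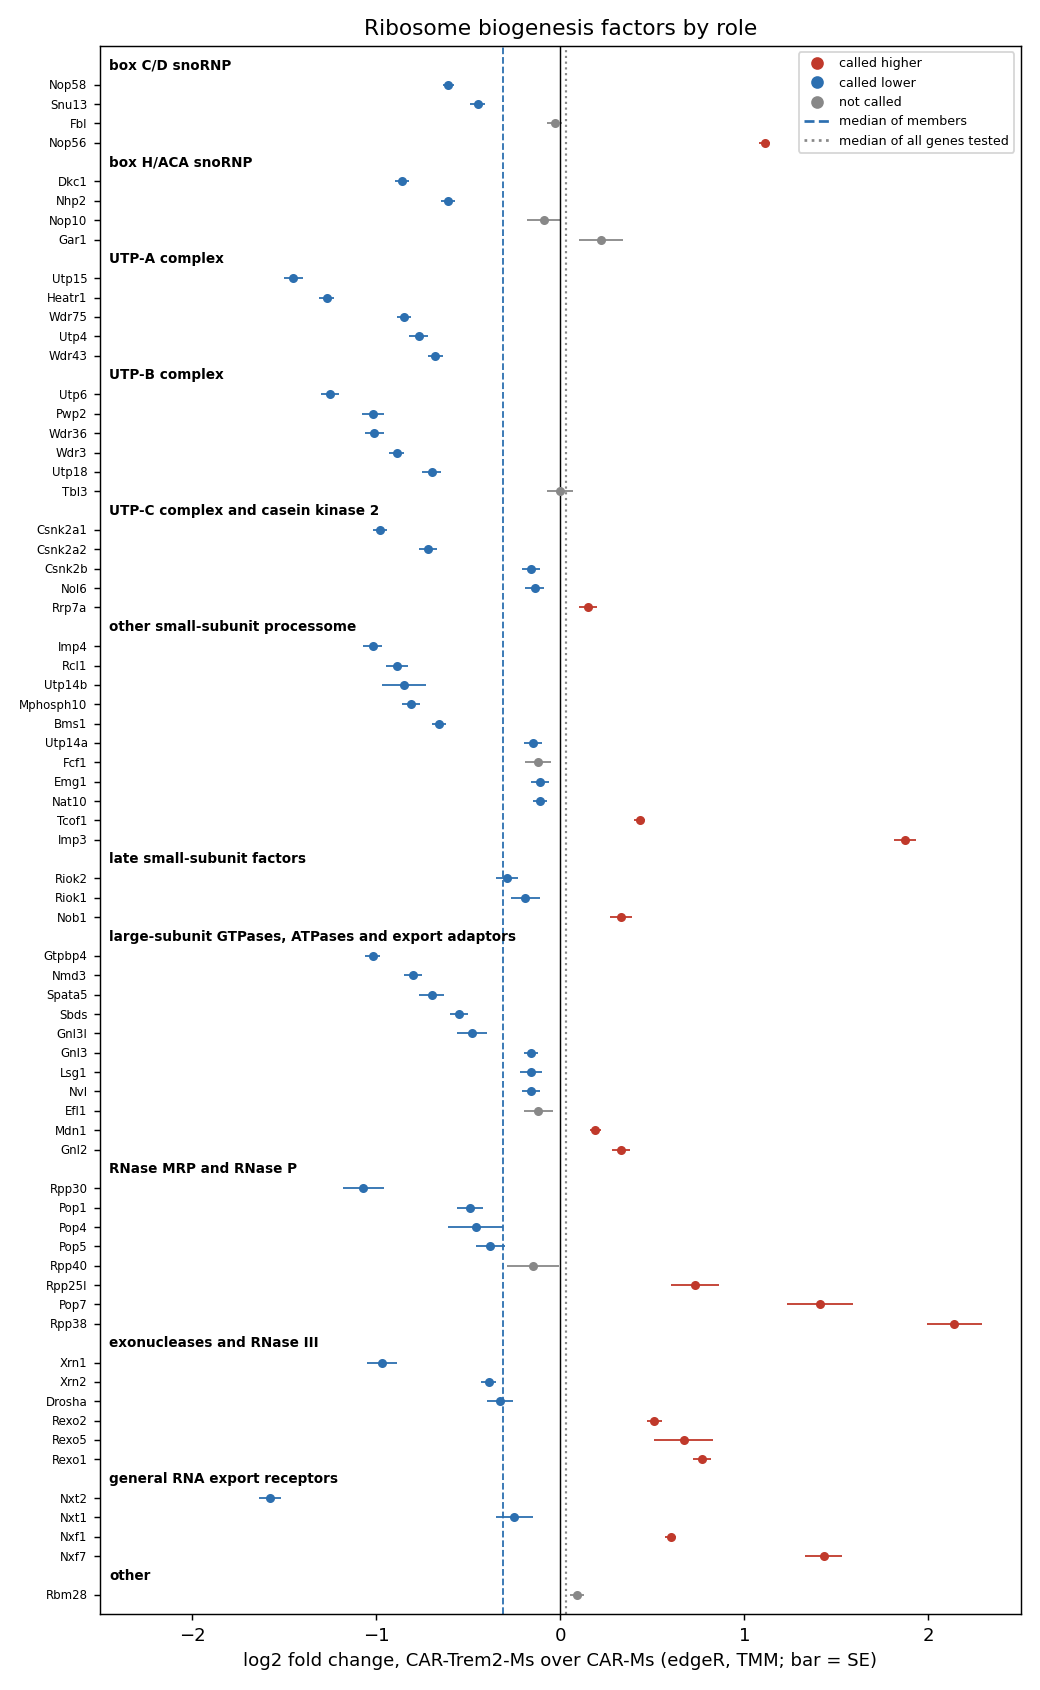
Log2 fold change (CAR-Trem2-Ms over CAR-Ms, x axis) of the 68 tested genes, grouped by role, with standard errors from edgeR as bars. The dashed line is their median (-0.31) and the dotted line the median of all 11402 genes tested (0.03); the UTP-A and UTP-B genes other than Tbl3 lie to the left, and Rpp38, Imp3, Nxf7, Pop7 and Nop56 lie farthest to the right.

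The UTP-A and UTP-B complexes, the first modules to bind the nascent precursor, had the lowest medians of the role groups with more than 1 tested gene. All 5 UTP-A genes were called lower (beside 40.1% of all genes tested), with a median of -0.85. Utp15, at chr13:98246845-98263041 (GRCm38), stood at 169.6, 161.4 and 162.1 CPM in CAR-Ms and at 66.6, 58.1 and 55.5 CPM in CAR-Trem2-Ms. Its level fell 2.73-fold (log2 -1.45, SE 0.05, edgeR adjusted p 9.5e-20), and the groups lay far apart. Heatr1, a large scaffold of the complex at chr13:12395027-12440289, was at 240.3, 227.7 and 237.8 CPM and then at 94.5, 104.7 and 94.8 CPM, a fall of 2.41-fold (SE of the log2 value 0.04, adjusted p 7.3e-21). The value for Heatr1 was -0.67 with the GC and length correction. Heatr1 shares 155 exon bases with Lgals8 on the other strand, and whether counting used strand is not stated. Wdr75 fell 1.80-fold, and Utp4 and Wdr43 changed by log2 -0.77 and -0.68.

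UTP-B had 5 of 6 genes called lower (83.3%, beside 40.1% of all genes tested), with a median of -0.95. Utp6 was at 155.4, 161.0 and 168.0 CPM in CAR-Ms and at 70.2, 64.7 and 68.1 CPM in CAR-Trem2-Ms (log2 -1.25, SE 0.05, edgeR adjusted p 2.1e-19). Its 2 groups were separated by more than the level left in CAR-Trem2-Ms. Pwp2 and Wdr36, WD-repeat scaffolds of the complex, changed by log2 -1.02 and -1.01, and Wdr3 and Utp18 by -0.89 and -0.70. Tbl3, the remaining WD-repeat scaffold, was at 50.8, 48.7 and 52.6 CPM and at 54.8, 50.8 and 46.4 CPM, with fully overlapping groups (log2 -0.00, adjusted p 0.994), though it was called higher under upper quartile factors. It shares 2122 of its 5686 exon bases with Noxo1 on the other strand, so its count is uncertain. The UTP-A and UTP-B genes called lower, 5 in each complex, were also called lower under upper quartile factors and with the GC and length correction, where the medians were -0.67 and -0.59. With that correction the snoRNP groups described below came close, at -0.55 for box H/ACA and -0.48 for box C/D.

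In UTP-C and casein kinase 2, the kinase that joins it, 4 of 5 genes were called lower and 1 higher. These shares were 80% and 20%, beside 40.1% and 40.9% of all genes tested. The catalytic subunits Csnk2a1 and Csnk2a2 changed by log2 -0.98 and -0.72, from 204.0 ± 3.67 to 103.3 ± 4.73 CPM and from 118.6 ± 4.1 to 71.9 ± 2.5 CPM (mean ± SD, n = 3). The regulatory subunit Csnk2b was at 121.0, 110.1 and 112.7 CPM and at 94.8, 107.2 and 106.5 CPM. Its groups did not overlap, but the change was small (log2 -0.16, SE 0.05, adjusted p 0.00756), its sign turned under upper quartile scaling (0.07), and the call was lost without CAR-Ms replicate 1 or CAR-Trem2-Ms replicate 1. The GC and length correction turned the order of the subunits around, giving -0.69 for Csnk2b, -0.52 for Csnk2a1 and -0.19 for Csnk2a2. The UTP-C genes Nol6 (-0.14) and Rrp7a (0.15) were called in opposite directions by small amounts, and both signs turn with scaling, that of Nol6 under upper quartile factors and that of Rrp7a on TPM. Rrp7a shares 678 exon bases with Serhl.

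**Figure D2:**
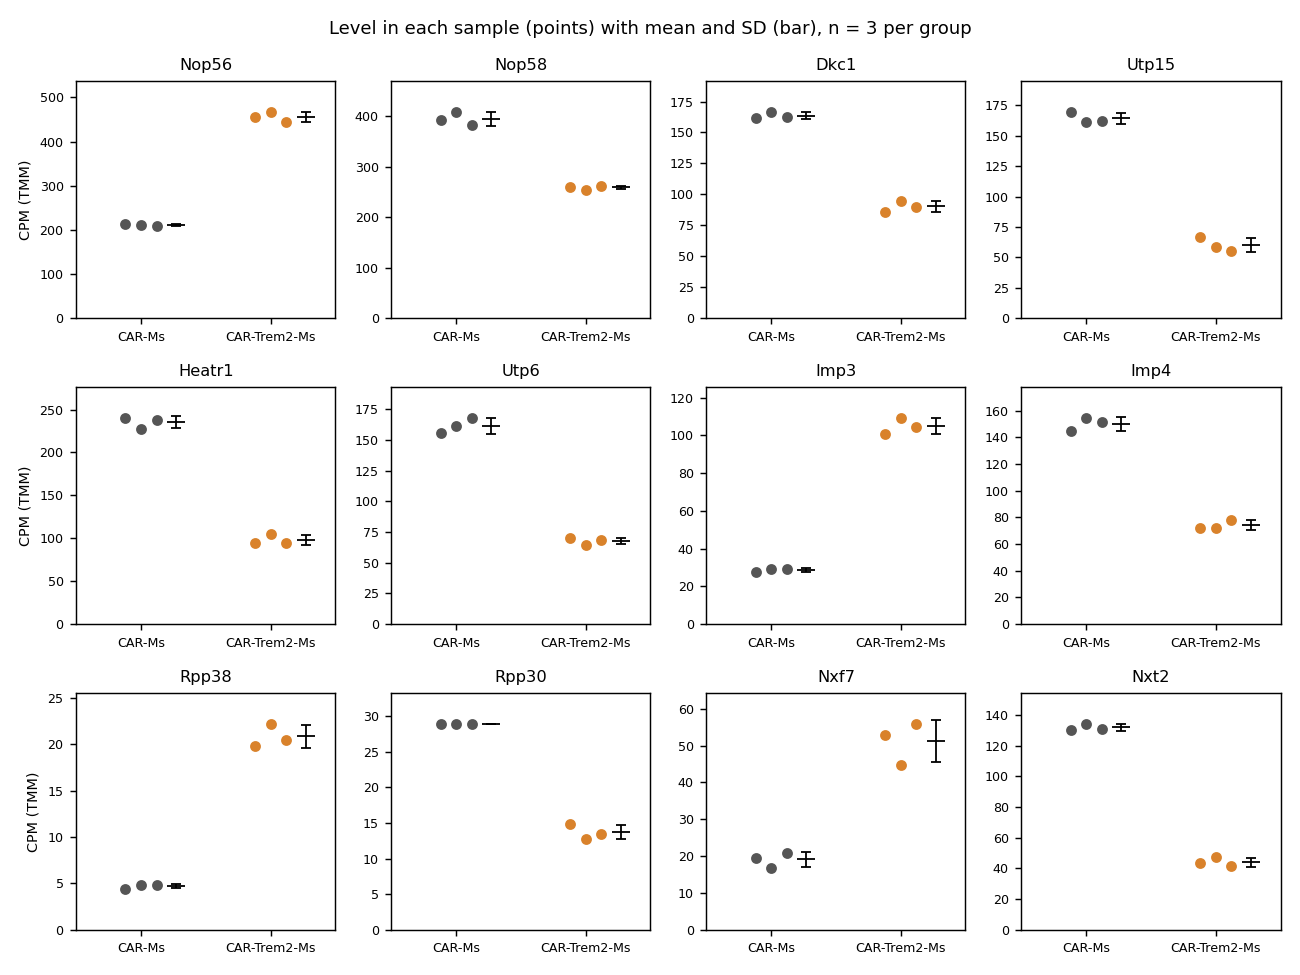
CPM (TMM) of 12 named genes in each of the 3 CAR-Ms and 3 CAR-Trem2-Ms samples, with the mean and SD beside the points; every y axis starts at 0. Nop56, Imp3, Rpp38 and Nxf7 are higher in CAR-Trem2-Ms and the other 8 are lower, with no overlap between groups in any panel.

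The remaining small-subunit processome genes comprised 11 tested genes, 8 called lower and 2 called higher. These shares were 72.7% and 18.2%, beside 40.1% and 40.9% of all genes tested. The median of -0.15 turned to 0.08 under upper quartile scaling. Imp3, Imp4 and Mphosph10 encode proteins that act as 1 unit of the U3 snoRNP, and their RNAs moved apart. Imp3, at chr9:56937475-56938398, was at 27.7, 28.9 and 29.4 CPM in CAR-Ms and at 101.0, 109.3 and 104.3 CPM in CAR-Trem2-Ms. This was a rise of 3.65-fold (log2 1.87, SE 0.06, edgeR adjusted p 8.7e-21), and the lowest CAR-Trem2-Ms sample was far above the highest CAR-Ms sample. Imp4, at chr1:34439851-34449356, was at 144.6, 154.7 and 151.4 CPM and at 72.1, 72.3 and 78.2 CPM, a fall of 2.02-fold (log2 -1.02, SE 0.05). Mphosph10 fell by 0.81. The values were 1.14 for Imp3, -0.48 for Imp4 and -0.70 for Mphosph10 with the GC and length correction. Imp3 has a single exon and Imp4 has 9.

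Among the other genes of this group, Rcl1, an endonuclease-related cleavage factor, fell by 0.89, and Bms1, its GTPase partner, fell by 0.66. Utp14b fell by 0.85, and its close relative Utp14a was called lower (-0.15), a sign that turned under upper quartile scaling. The GC and length correction ended both calls (-0.14 for Utp14b and -0.06 for Utp14a). Reads of such copies may be shared, and Utp14b overlaps Acsl3 by 244 exon bases on the same strand. Nat10, the acetyltransferase of ribosomal RNA, and Emg1, a methyltransferase, were called lower (-0.11 each). Under upper quartile scaling both were called higher (0.12 for Nat10 and 0.13 for Emg1). Corrected for GC and length, Nat10 was at 0.00 and Emg1 at -0.50. Emg1 groups overlapped. Tcof1, a nucleolar partner of RNA polymerase I, rose from 266.7 ± 7.75 to 358.8 ± 15 CPM (log2 0.43), a sign that turned on TPM (-0.31). Fcf1 was at 55.4 ± 2.94 and 51.1 ± 2.3 CPM and was not called, but was called lower (-0.48) with the GC and length correction.

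The promoter windows of several of these genes are shown because the deposited levels moved in opposite directions within a complex, and because short motifs recurred in the windows. RefSeq windows for GRCm38.p6, from 250 bases before to 50 after a start site, were matched by symbol for 62 of the 74 genes and gave 71 windows. The E-box CACGTG, the core motif of MYC-type factors, was in 18.3% of the 71 windows and in 7.15% of 32851 windows of all genes. The ETS-type letters CCGGAAG were in 35.2% and 8.86%, on either strand and with overlaps allowed. Utp4 and Utp18, both called lower, are among the 3 matched genes that hold both motifs. Imp4 holds an E-box, and Imp3 has neither. Nop56 (called higher) and Nop58 (called lower), whose windows are not shown, also have neither. Rpp38, which had the largest rise, holds an E-box. Capitals mark the E-box and the ETS-type letters, which read as CTTCCGG on the opposite strand. The windows, 5′ to 3′ along each gene, are chr8:106893390-106893689 (+) for Utp4, chr11:93885717-93886016 (-) for Utp18, chr9:56937250-56937549 (+) for Imp3 and chr1:34439579-34439878 (+) for Imp4.
Utp4: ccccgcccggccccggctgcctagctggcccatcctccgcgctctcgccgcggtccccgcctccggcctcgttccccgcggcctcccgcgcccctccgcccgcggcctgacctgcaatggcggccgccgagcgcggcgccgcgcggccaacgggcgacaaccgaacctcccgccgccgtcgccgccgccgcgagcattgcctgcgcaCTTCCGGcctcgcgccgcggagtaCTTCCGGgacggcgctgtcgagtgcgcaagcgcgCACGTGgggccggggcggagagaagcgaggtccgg
Utp18: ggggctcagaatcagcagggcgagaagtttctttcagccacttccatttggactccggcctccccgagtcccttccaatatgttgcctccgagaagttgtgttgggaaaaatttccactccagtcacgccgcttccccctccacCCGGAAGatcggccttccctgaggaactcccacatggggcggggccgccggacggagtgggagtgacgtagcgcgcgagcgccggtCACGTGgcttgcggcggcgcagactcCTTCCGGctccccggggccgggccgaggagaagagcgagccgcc
Imp3: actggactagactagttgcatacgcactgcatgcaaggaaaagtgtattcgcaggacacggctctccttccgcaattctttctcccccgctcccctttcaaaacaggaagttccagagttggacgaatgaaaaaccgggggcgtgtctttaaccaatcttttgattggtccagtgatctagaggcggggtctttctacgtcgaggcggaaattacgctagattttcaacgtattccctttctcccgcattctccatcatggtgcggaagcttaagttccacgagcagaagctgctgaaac
Imp4: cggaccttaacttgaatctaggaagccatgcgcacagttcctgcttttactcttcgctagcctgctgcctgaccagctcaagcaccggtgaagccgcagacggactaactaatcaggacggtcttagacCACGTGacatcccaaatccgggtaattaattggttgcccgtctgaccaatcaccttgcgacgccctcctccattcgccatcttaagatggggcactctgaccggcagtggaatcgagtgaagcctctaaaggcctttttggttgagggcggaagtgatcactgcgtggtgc

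The same windows were searched, on both strands, for 4 further motifs. CCAAT was in 36.6% of the windows and 37.4% of all windows, TATAAA in 2.82% and 13.6%, ATGGCGG (YY1-type) in 7.04% and 4.05%, and the NRF1-type letters GCGCATGC in 2.82% and 2.71%. Among the matched genes called lower, 18 of 39 had the ETS-type letters and 7 of 39 the E-box. Among those called higher, the counts were 2 of 13 and 4 of 13. A match is a description of letters in a window and does not show that a factor binds there.

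The snoRNP core proteins gave another split. The box C/D particle methylates ribosomal RNA and is built on Fbl, Nop56, Nop58 and Snu13. Of its 4 tested genes, 1 was called higher and 2 lower (25% and 50%, beside 40.9% and 40.1% of all genes). Nop56, at chr2:130274430-130279313, was at 212.0, 211.2 and 208.9 CPM in CAR-Ms and at 456.6, 467.0 and 445.1 CPM in CAR-Trem2-Ms (log2 1.11, SE 0.03, edgeR adjusted p 2.3e-23). Nop58, the paired scaffold at chr1:59684971-59719044, went the other way, from 393.0, 409.0 and 382.7 CPM to 261.0, 254.8 and 261.5 CPM (log2 -0.61, SE 0.03). Neither gene showed overlapping groups. Nop56 shares exon bases with 4 snoRNA genes on its own strand, whose reads would fall in the same place. Snu13, the protein that first binds the box C/D fold, fell by 0.45. Fbl, the methyltransferase, was at 180.2, 179.6 and 172.7 CPM and at 176.0, 172.8 and 172.3 CPM and was not called (log2 -0.03, adjusted p 0.44). That outcome depended on the setting, since Fbl was called higher under upper quartile factors (0.20, adjusted p 1.9e-05) and lower with the GC and length correction (-0.71, adjusted p 1.7e-16). Its paralog Fbll1 had too few reads to test.

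Nop58, Nop56 and Nhp2 had the highest mean TPM of the 74 genes, a per-length scale that allows levels of different genes to be compared. Nop58 was at a mean of 738.2 TPM in CAR-Ms and 307.8 TPM in CAR-Trem2-Ms, Nop56 at 309.3 and 398.7 TPM, and Nhp2 at 393.9 and 158.6 TPM. On this scale Nop58 exceeded Nop56 in CAR-Ms and the order was reversed in CAR-Trem2-Ms.

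In the box H/ACA particle, which makes pseudouridine, 2 of 4 genes were called lower and none higher. The share called lower (50%) lies near that of all genes tested (40.1%, with 40.9% called higher). Dkc1, the pseudouridine synthase, was at 161.7, 166.6 and 162.2 CPM and at 86.1, 94.7 and 89.9 CPM (log2 -0.86, SE 0.04, edgeR adjusted p 2.2e-16). Nhp2, a core protein, fell by 0.61. Both kept separate groups. Gar1 and Nop10, the small core proteins, were at 22.1 ± 4.14 and 25.9 ± 3.65 CPM and at 42.5 ± 6.42 and 39.8 ± 2.65 CPM, and neither was called. Both were called lower with the GC and length correction (-0.45 for Gar1 and -0.28 for Nop10), and Gar1 was called higher under upper quartile factors.

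Within-library read ratios need no scaling between samples. The pairs were chosen after their values were seen, and the numerator is the gene that rose or fell less, so the direction is fixed by the choice and only sizes are given, with no test. Nop56 reads per Nop58 read were 0.539, 0.516 and 0.546 in the CAR-Ms libraries, against 1.75, 1.83 and 1.7 in the others, a 3.30-fold difference. Imp3 reads per Imp4 read went from 0.192, 0.187 and 0.194 to 1.4, 1.51 and 1.33, a 7.41-fold difference. Rpp38 reads per Rpp30 read went from 0.154, 0.167 and 0.169 to 1.34, 1.74 and 1.52, a 9.34-fold difference. In each of these pairs the ratio was below 1 in every CAR-Ms sample and above 1 in every CAR-Trem2-Ms sample. Ratios within a library are free of its scaling but not of GC and length trends. With the GC and length correction, the difference for Nop56/Nop58 was 2.93-fold, for Imp3/Imp4 3.09-fold and for Rpp38/Rpp30 9.35-fold, while that for Csnk2b/Csnk2a1 turned (log2 0.82 before and -0.17 after).

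**Figure D3:**
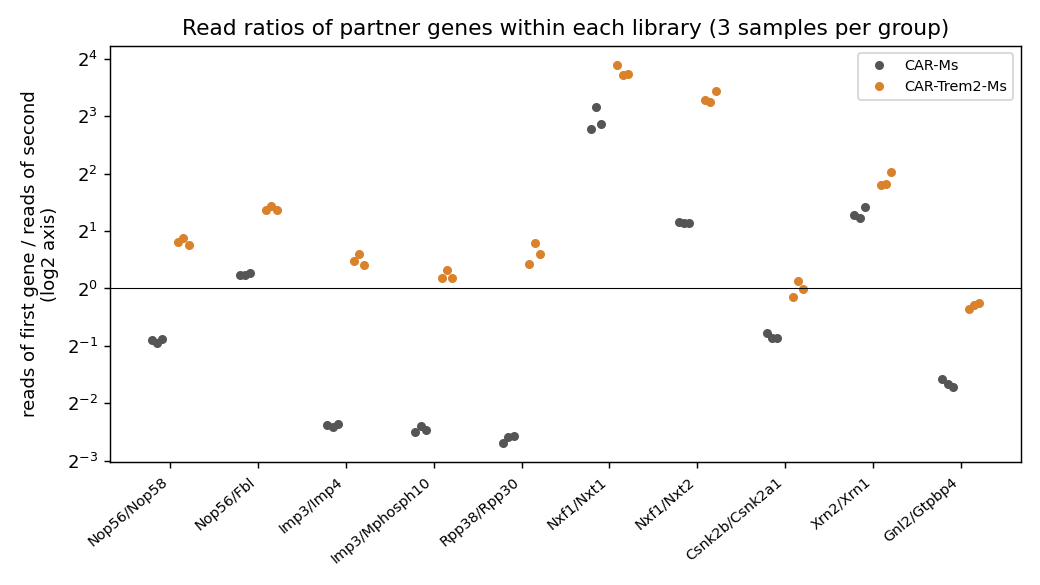
Reads of the first gene divided by reads of the second in the same library, on a log2 axis, for 10 pairs of genes whose products act together or alike; each point is 1 sample, 3 per group. The pairs were chosen and ordered after their values were seen, which fixes the direction; the differences run from 1.49-fold for Xrn2/Xrn1 to 9.34-fold for Rpp38/Rpp30, without the GC and length correction.

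RNase MRP and RNase P share most of their proteins, the first cutting the ribosomal precursor and the second the 5′ ends of tRNA precursors. Of 8 tested genes, 3 were called higher and 4 lower, with a median of -0.27. These shares (37.5% and 50%) lie near those of all genes tested (40.9% and 40.1%). Rpp38, at chr2:3328949-3332643, was at 4.45, 4.82 and 4.87 CPM in CAR-Ms and at 19.8, 22.2 and 20.5 CPM in CAR-Trem2-Ms. It rose 4.40-fold (log2 2.14, SE 0.15, edgeR adjusted p 1.8e-13), more than any other of the 68 tested genes. Rpp30, at chr19:36083716-36104777, was at 28.9 CPM in each CAR-Ms sample and at 14.8, 12.8 and 13.5 CPM in CAR-Trem2-Ms (log2 -1.07, SE 0.11). Pop7 was at 5.06, 7.48 and 6.26 CPM and at 12.7, 18.6 and 19.1 CPM (log2 1.41, SE 0.18), and its groups were also separate. Rpp25l rose by 0.73, though the GC and length correction turned its sign (-0.22) and gave 0.68 for Pop7. The scaffold Pop1 fell by 0.49, and Pop4 and Pop5 changed by -0.46 and -0.38, calls that upper quartile scaling ended, while the GC and length correction gave -0.54 and -1.16. Rpp40 was not called (0.31 and called higher with that correction), and Rpp25 was too low to test.

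Of the nucleases that trim spacers and excised fragments, 3 of 6 were called higher and 3 of 6 lower. These shares (50% each) lie near those of all genes tested (40.9% higher and 40.1% lower). Xrn1, the main cytoplasmic 5′ to 3′ exonuclease, was at 64.2, 67.9 and 59.7 CPM and at 34.6, 33.5 and 30.1 CPM (log2 -0.97, SE 0.08, edgeR adjusted p 2.6e-12). Corrected for GC and length, this was -0.37. Its nuclear relative Xrn2 fell (log2 -0.39), as did Drosha, the RNase III of microRNA processing (-0.33). The GC and length correction ended both calls (-0.06 and -0.09), and upper quartile scaling ended that of Drosha (-0.10). Rexo1 went from 76.8 ± 2.93 to 130.6 ± 1.42 CPM (log2 0.77, SE 0.05), and its groups were separate. On TPM, however, the log2 change of Rexo1 was -0.10. Rexo5 rose by 0.67 and Rexo2, an oligoribonuclease, by 0.51, the latter turning negative on TPM.

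The large-subunit GTPases, ATPases and export adaptors comprised 11 tested genes, 8 called lower and 2 higher. These shares were 72.7% and 18.2%, beside 40.1% and 40.9% of all genes tested. The median of -0.16 turned to 0.07 under upper quartile scaling. With the GC and length correction 5 were called lower and 3 higher, beside 4532 and 4433 of all 11402 genes. Gtpbp4, a GTPase of early nucleolar pre-60S particles, was at 238.4, 247.6 and 236.9 CPM in CAR-Ms and at 120.0, 118.9 and 116.8 CPM in CAR-Trem2-Ms (log2 -1.02, SE 0.04, edgeR adjusted p 6.1e-20). Nmd3, the adaptor that links the pre-60S subunit to the exportin, fell by 0.80, from 146.8 ± 4.39 to 84.1 ± 0.371 CPM. The GC and length correction left both called lower, at -0.32 for Gtpbp4 and -0.19 for Nmd3. Spata5, an AAA ATPase, fell by 0.70, and it shares 316 exon bases with Nudt6. Sbds, which acts in the cytoplasm with Efl1 to release the last anti-association factor, fell by 0.55. Efl1 itself was at 40.7, 43.9 and 41.6 CPM and at 36.4, 39.7 and 40.4 CPM, and was not called (adjusted p 0.165) although no sample of 1 group overlapped the other. The anti-association factor Eif6, among the 3 genes the rule left out, fell by 0.62.

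Other GTPases and ATPases of this group moved little. Gnl3 and Lsg1 were called lower (-0.16 each), and both turned positive (0.07) under upper quartile scaling. The GC and length correction ended the call of Lsg1 (-0.04). Nvl was called lower (-0.16), but the GC and length correction turned it to 0.54. Gnl3l fell by 0.48, and the same correction turned it to 0.04. Gnl2 rose by 0.33 and the giant ATPase Mdn1 by 0.19, from 213.6, 218.8 and 216.3 CPM to 251.0, 250.6 and 240.2 CPM. Both turned negative on TPM (-0.46 for Mdn1).

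Late small-subunit factors were 3 genes with small changes. The kinase Riok2 fell by 0.29, from 61.6, 66.0 and 63.2 CPM to 54.3, 50.2 and 51.2 CPM, and its call was lost under upper quartile factors (-0.06). Riok1 was called lower (log2 -0.19, edgeR adjusted p 0.0267), but its groups overlapped, its sign turned under upper quartile scaling (0.04), and the call was lost without CAR-Ms replicate 1 or 2 and without CAR-Trem2-Ms replicate 1 or 3. Nob1, the endonuclease that makes the mature 3′ end of 18S RNA, was called higher by 0.33, from 66.2 ± 3.11 to 83.2 ± 4.21 CPM, with a log2 change of -0.25 on TPM. With the GC and length correction none of the 3 was called (-0.01 for Riok2, -0.05 for Riok1 and 0.01 for Nob1). Rbm28, placed in no group, was at 137.0 ± 2.63 and 145.5 ± 3.07 CPM and was not called (adjusted p 0.0557), but was called higher under upper quartile factors (0.32) and with the GC and length correction (0.45).

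The entry also holds general RNA export receptors, which carry messenger RNA as well as ribosomal subunits. Nxt2, a cofactor of the export receptor Nxf1, had the largest fall of the 68 genes. It is on chrX:142226770-142239692 and was at 130.3, 134.3 and 131.2 CPM in CAR-Ms and at 43.9, 47.2 and 41.4 CPM in CAR-Trem2-Ms (log2 -1.58, SE 0.06, edgeR adjusted p 2.2e-20). Nxf7, a family member on chrX:135579555-135598777, was at 19.6, 16.9 and 20.9 CPM and at 52.9, 44.8 and 55.9 CPM (log2 1.43, SE 0.10). Nxf1 was at 290.4, 296.1 and 289.4 CPM and at 426.5, 450.5 and 448.5 CPM (log2 0.60, SE 0.03), while on TPM its log2 change was -0.15. The groups were separate in all 3 genes. Nxt1 was called lower (-0.25) with overlapping groups, and upper quartile scaling ended that call. Nxf2 and Nxf3 were not tested. Xpo1, the exportin of both subunits that the rule left out by prefix, went from 893.8 ± 21.1 to 295.2 ± 10.1 CPM.

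Sequence features of the genes ran alongside their changes. Across the 68 genes, Spearman's rho of the log2 change with the GC content of the principal transcript was 0.56 (Pearson's r 0.48), beside 0.30 over all tested genes. With transcript length it was -0.36, beside -0.32. These are descriptions across genes, which share libraries and are not independent replicates. The median GC content was 50.5% in genes called higher and 46.3% in those called lower, beside 50.5% over all genes tested. Within those called higher, rho with GC content was -0.05, and within those called lower it was 0.45. The 5 tested genes with at most 2 exons, a group noticed after their values were seen, were Imp3, Pop7, Rpp38, Rpp25l and Nop10, and their median change was 1.41. Over all 810 tested genes with at most 2 exons the median was 0.85. The median of the 68 genes after the GC and length correction was -0.30, beside 0.00 for all genes. What the association with GC content comes from was not tested.

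**Figure D4:**
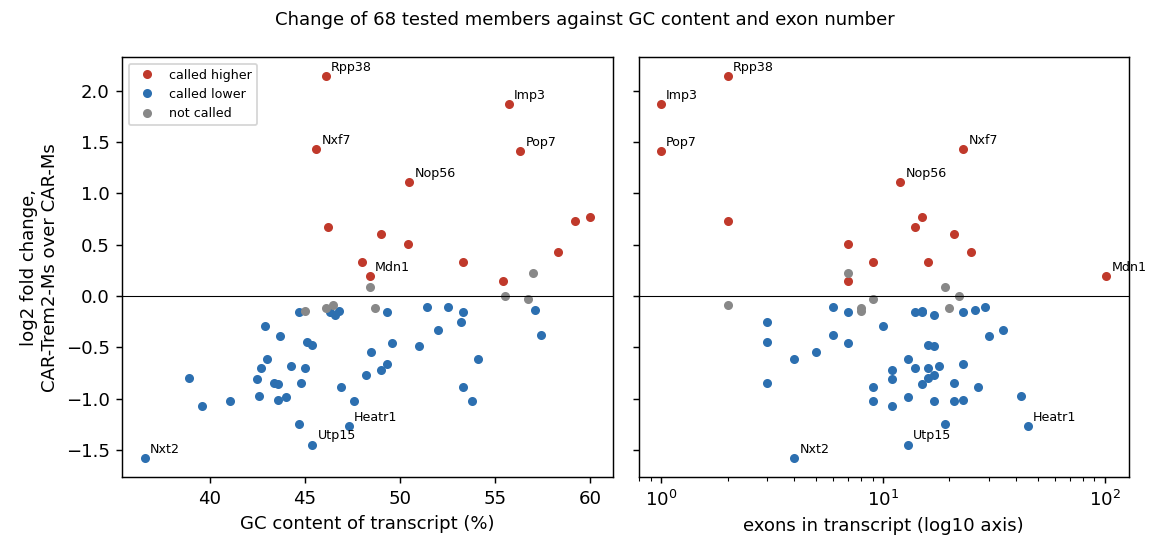
Log2 fold change (CAR-Trem2-Ms over CAR-Ms) of the 68 tested genes against transcript GC content in percent (left) and number of exons on a log10 axis (right); each point is 1 gene, coloured by call. Genes with low GC content lie mostly below 0, and Imp3, Pop7 and Rpp38, with at most 2 exons, lie far above it.

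Other parts of the same pathway were read from lists outside the entry. Of all genes tested, 40.1% were called lower and 40.9% higher, with a median of 0.03. Under upper quartile factors, 3606 of all 11402 genes were called lower and 5714 higher. With the GC and length correction, 4532 were called lower and 4433 higher. Of 31 further small-subunit assembly factors, 23 were called lower and 5 higher, with a median of -0.46, and under upper quartile factors 16 lower and 8 higher, with a median of -0.23. Pno1, the partner of Nob1, and Nol11, a UTP-A component, both fell by 1.18, and Krr1 fell by 1.17. Of 40 further large-subunit factors, 23 were called lower and 11 higher, with a median of -0.17, but under upper quartile factors 16 were called in each direction, with a median of 0.06. The 3 largest changes there were rises, those of Nop53 (77.9 ± 4.96 to 284.0 ± 8.5 CPM, log2 1.87), Rrs1 (1.66) and Ppan (1.36). Of 14 tested RNA exosome genes, 3 were called higher and 5 lower, with a median of 0.00. The balance depended on the setting, with 8 higher and 3 lower under upper quartile factors (median 0.23) and 3 higher and 10 lower with the GC and length correction (-0.28). Exosc5 rose by 1.37, and the helicase Mtrex and the nuclease Dis3 changed by -1.01 and -0.87.

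The RNA polymerase I list had 12 of 21 genes called lower and 7 higher, beside 40.1% and 40.9% of all genes tested. Its median was -0.34. Under upper quartile factors 9 were called lower and 7 higher, with a median of -0.11. With the GC and length correction the numbers were 15 lower and 3 higher. Rrn3, the initiation factor that couples the polymerase to growth signals, was at 153.7, 144.8 and 141.6 CPM in CAR-Ms and at 38.7, 40.1 and 32.9 CPM in CAR-Trem2-Ms (log2 -1.98, SE 0.06, edgeR adjusted p 1.1e-21). Ubtf, the architectural factor of ribosomal DNA, was at 434.0, 433.3 and 451.7 CPM and at 157.8, 156.2 and 163.8 CPM (log2 -1.46). Tbp fell by 1.37. The groups were widely separated for Rrn3 and Ubtf.

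Of 11 tested MYC network genes, 3 were called higher and 5 lower, beside 40.9% and 40.1% of all genes tested. Their median of -0.15 turned to 0.08 under upper quartile scaling. Myc, the transcription factor best known for driving ribosome biogenesis genes, was at 3.84, 3.68 and 3.29 CPM in CAR-Ms and at 28.9, 26.8 and 23.0 CPM in CAR-Trem2-Ms (log2 2.86, SE 0.15, edgeR adjusted p 3.8e-16). Mycn, named after its values were seen, was at 559.1, 605.3 and 587.5 CPM and at 1034, 1006 and 1066 CPM (log2 0.83, SE 0.03), far above Myc in reads in both groups. Myc and Mycn were higher in all CAR-Trem2-Ms samples while most ribosome biogenesis factors were lower. The repressors Mga and Mnt changed by -1.59 and -1.17. All 20 genes of the DNA replication and division list were called lower, beside 40.1% of all genes tested, with a median of -1.31. Under upper quartile factors 16 were called lower (median -1.08), and with the GC and length correction 17 (median -1.16). The largest falls were those of Ccne2 (-2.69), Mcm4 (-2.59) and Mcm6 (-1.85).

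**Figure D5:**
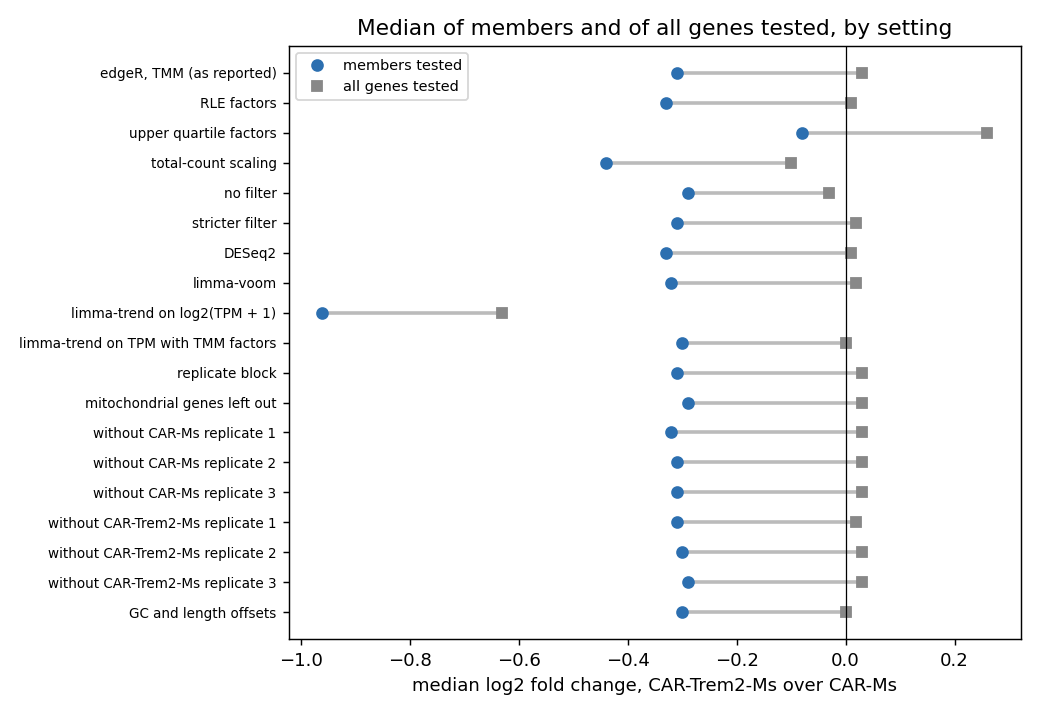
Median log2 fold change (CAR-Trem2-Ms over CAR-Ms) of the tested ribosome biogenesis factors (circles) and of all genes tested (squares) in each setting; the line between them is the gap. RLE, upper quartile and total-count scaling shift both medians alike by construction. Both medians are lowest on log2(TPM + 1) without TMM factors (-0.96 and -0.63), and the circles lie left of the squares.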

How the data were processed

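RNA was sequenced from 6 samples, 3 per group. The submitters' processing notes name StringTie 1.3.1, HISAT2, Bowtie2 2.2.8 and fastp 0.18.0, with the genome build mm10. For the counting tool, strand setting and annotation release: not given in the sources used here. The table was read as deposited. Per the file headers, the authors deposited raw counts per gene, whole numbers with different totals per sample. Per the file headers, the authors also deposited TPM, scaled for length within each library. The test on counts was that of edgeR 4.0.16 under R 4.3.3 (filterByExpr, TMM, quasi-likelihood fit, Benjamini-Hochberg adjustment over 11402 genes, threshold 0.05), after the procedure was tested on simulated data. In that simulation only a small part of the genes changed, up and down alike. It could not check the scaling for data such as these, where most genes tested are called. Alternatives used DESeq2 1.42.0, limma 3.58.1 (voom, and log2 of TPM plus 1 for genes with TPM of at least 1 in 3 samples), other scalings, filters and thresholds, a replicate block, each sample left out and, added after seeing the data, offsets for per-sample spline trends with transcript GC content and length. The members and lists were chosen with earlier results of these data known. Genes were named by rule: in each role or list, up to 3 called genes with the largest change and at least 50 mean reads in the higher group, the 3 highest in mean TPM, and Myc. Other genes are named as exceptions, or to account for their group, after their values were seen. Transcript features came from GENCODE M21 principal transcripts. Depth limits low genes most: 3 counts correspond to 0.189 to 0.306 CPM.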

Additional observations from a re-analysis of the deposited data

How the results depend on the processing

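Against 15 genes called higher, 45 lower and a median log2 change of -0.31, upper quartile scaling gave a median of -0.08, total-count scaling -0.44 and log2(TPM + 1) -0.96, where 5 genes were called higher. Requiring at least 2-fold left 5 higher and 9 lower. In the lists outside the entry (29 higher, 88 lower), the genes called higher numbered 44 under upper quartile scaling, 6 on TPM and 6 at 2-fold or more, with 30 lower at 2-fold or more. Of all 11402 genes, 5714 were called higher under upper quartile scaling. At 2-fold or more, 2136 were called higher and 1629 lower. On TPM, 1890 of 10824 genes were called higher. Some of the 51 genes named by rule changed sign. Under upper quartile scaling these were Csnk2b (0.07) and Riok1 (0.04), and under total-count scaling Rbm28 (-0.04). On TPM they were Rbm28 (-0.64), Rexo1 (-0.10), Nxf1 (-0.15) and Nob1 (-0.25). With TMM factors applied to TPM, 16 genes were called higher and 40 lower, with medians of -0.30 for them and -0.00 for all genes. Rexo1, Nxf1, Nob1, Tcof1, Rexo2, Gnl2, Mdn1 and Rrp7a were each negative in 1 setting, log2(TPM + 1) without those factors, and positive in 20. The cause was not tested, beyond the shift of the all-gene median that each scaling carries. Leaving out each sample in turn gave 14 to 16 higher and 39 to 43 lower. The replicate block gave 15 higher and 45 lower; same-numbered samples share only a number, their deviations correlating at 0.028, -0.027 and 0.032. With the GC and length correction, added after seeing the data, 16 were called higher and 39 lower. Over 1020 alternatives for 51 named genes, 978 left direction and call as they were, 32 lost the call, 3 gained it and 7 reversed. Settings that share a fit or move all genes alike are counted among them. Most of these 51 were named for the largest changes of their group. Among all tested factors, 10 of the 45 called lower turned positive in at least 1 setting. Of the 15 called higher, 9 turned negative in at least 1 setting. Replicates differed beyond sampling noise, with chi-square per degree of freedom of 2.19 to 2.36 for CAR-Ms, against 3.21 to 3.34 for CAR-Trem2-Ms.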
